A study of Mus musculus with 28 samples.

Results

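The genes of eicosanoid synthesis and of 2 prostaglandin receptors were followed in murine bone marrow-derived macrophages (BMDMs) exposed to von Willebrand factor (VWF) or to bacterial lipopolysaccharide (LPS). The 10 genes were taken as a list by symbol, out of 54532 genes in the count table: Pla2g4a, Ptgs1, Ptgs2, Ptges, Tbxas1, Alox5, Alox5ap, Ltc4s, Ptger2 and Ptger4. All 10 were found in the table and all 10 had counts. Bulk RNA sequencing covered 28 cultures in 6 groups. Control cultures received PBS (n = 5 at 3.5 h and n = 5 at 16 h), VWF cultures received 10 µg/ml of plasma-derived VWF (n = 5 at each time), and LPS cultures received LPS at 100 ng/ml (n = 4 at each time). The cells of every group came from the bone marrow of C57/B6JB mice, had been grown in M-CSF, and were treated in medium with added CaCl2. The labels call the cultures biological replicates, but nothing in the sources used here says whether they came from separate mice, so the p values measure the spread between these cultures.

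Eicosanoids are short-lived lipid signals made from arachidonic acid. A cytosolic phospholipase A2 releases the fatty acid from membranes, the cyclooxygenases turn it into prostaglandin H2, and terminal synthases convert that intermediate into prostaglandin E2 (PGE2), thromboxane A2 and other prostanoids. In a parallel branch, 5-lipoxygenase and its helper protein FLAP start the synthesis of leukotrienes. Macrophages are a known source of both classes, and PGE2 acts back on macrophages through the EP2 and EP4 receptors, which raise cyclic AMP.

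The 28 libraries held 41131209 to 77699206 counts (median 52986574). Levels are given in CPM, the counts scaled to a common library size with TMM factors, which lay between 0.745 and 0.849 in LPS cultures, between 0.899 and 1.09 in VWF cultures and between 1.04 and 1.24 in control cultures. Values of separate genes are compared only in TPM, which also divides by exon length. A gene entered a comparison when 1 or more of the cultures in it had 10 TPM. It was called when its adjusted p in edgeR's quasi-likelihood test (Benjamini-Hochberg over all genes tested) was under 0.05 and its absolute log2 fold change was over 1. All 8 macrophage markers were detected in each group. Summed marker levels of other cell types ran, over the 28 cultures, from 0 to 0.801 TPM for T cells and from 0.0257 to 0.659 TPM for B cells. They ran from 0.571 to 4.78 TPM for 7 mast cell and basophil genes, of which Tpsb2 and Mcpt4 held no counts and Mcpt8 reached 4.10 TPM. Dendritic cell markers summed to 0.347 to 12.1 TPM, endothelial markers to 1.36 to 20.004 TPM, eosinophil markers to 12.2 to 31.1 TPM, neutrophil markers to 17.5 to 123 TPM, and 4 fibroblast and stromal markers to 4.03 to 150.1 TPM. The dendritic and endothelial ranges followed treatment in part. Mean Xcr1, of the dendritic list, was 0.357 TPM in controls, 7.92 TPM with VWF and 10.4 TPM with LPS at 3.5 h. Zbtb46 of that list was at 0.379, 0.963 and 0.395 TPM in these groups, and Flt3 and Clec9a were at 0.0641 TPM or less. Mean Kdr, of the endothelial list, was 0.341 TPM in controls, 0.482 TPM with VWF and 12.9 TPM with LPS at 16 h. Vwf of that list went the other way, at 4.66, 1.23 and 2.06 TPM, and Cdh5 was at 0.0808, 0.448 and 0.621 TPM. The genes of a list thus did not move together. The 6 platelet and megakaryocyte markers summed to 886 to 4387 TPM. Pf4, which macrophages also express, reached 4379 TPM and Ppbp 38.7 TPM, while Itga2b, Gp9, Gp6 and Gp1bb were at 0.876 TPM or less.

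Control 16 h replicate 5 stood apart from its group. Its 8 macrophage markers summed to 7670 TPM, against 30905 to 36785 TPM in the other 4 controls at 16 h. LPS 16 h replicate 4 was also low in its group (9179 TPM against 16140 to 19007), as were VWF 16 h replicate 4 (28539 TPM against 43657 to 50694) and LPS 3.5 h replicate 1 (10570 TPM against 17516 to 18181). For comparisons between groups at 16 h, fits without one of the 16 h cultures were also read. Their value is given where a call changed or where a leukotriene gene or Ptger2 moved markedly. Some values over time are given likewise. Lyz2 had the highest mean of the 8 macrophage markers in every group. At 16 h it was 23629 TPM in controls, 35733 TPM with VWF and 6197 TPM with LPS. The sums thus weigh Lyz2 most, and a low sum need not be a drop of each marker. In bulk RNA, fewer cells of a type and less RNA per cell cannot be told apart.

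With VWF at 3.5 h, the inducible cyclooxygenase Ptgs2, the PGE2 synthase Ptges and the PGE2 receptor genes Ptger2 and Ptger4 all rose, which was 4 of 9 members tested. Among all 8200 genes tested, 14.7% were called, 9.10% higher and 5.59% lower. By 16 h of VWF, 2 of 7 members tested were called, Ptges and Ptger4, both higher, against 8.71% of all genes called, 4.55% higher and 4.15% lower. With LPS at 3.5 h, 3 of 8 rose, Ptgs2, Ptges and Pla2g4a, against 24.5% of all genes called, 12.8% higher. At 16 h of LPS, 5 of 6 were called against 27.6% of all genes (15.3% higher and 12.4% lower). Of the members, Ptgs2, Ptges and Pla2g4a were higher, and the leukotriene genes Ltc4s and Alox5ap were lower. The median log2 fold change of the members tested was 0.95, 0.26, 0.57 and 0.67 in these 4 comparisons, where the median of all genes tested was −0.01, −0.03, −0.02 and −0.03. With no filter the member medians with VWF were 0.47 at 3.5 h and 0.33 at 16 h. With LPS at 16 h the filter left out Ptgs1, Alox5, Ptger2 and Ptger4. Without the filter their log2 fold changes were −2.29, −5.42, −0.59 and 0.00027. Ptgs2 and Ptges passed there only through the LPS cultures, with controls at up to 4.36 and 2.10 TPM. The 0.67 therefore describes the members that passed and not the whole list. In the VWF comparison at 3.5 h, Ptges, Ptger2 and Pla2g4a passed the filter only through the VWF cultures. Their controls reached at most 2.50, 9.06 and 8.25 TPM. At 16 h of VWF, Ptges, Ptger4 and Ptger2 passed only through the VWF cultures, with controls at up to 2.10, 8.92 and 9.45 TPM. With LPS at 3.5 h, Ptges and Pla2g4a passed only through the LPS cultures, with controls at up to 2.50 and 8.25 TPM. The members were chosen with earlier results of these data known. Their shares and medians, here and below, are therefore a description and not a test of the list. The VWF and LPS comparisons at a given time share their control cultures.

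**Figure D1:**
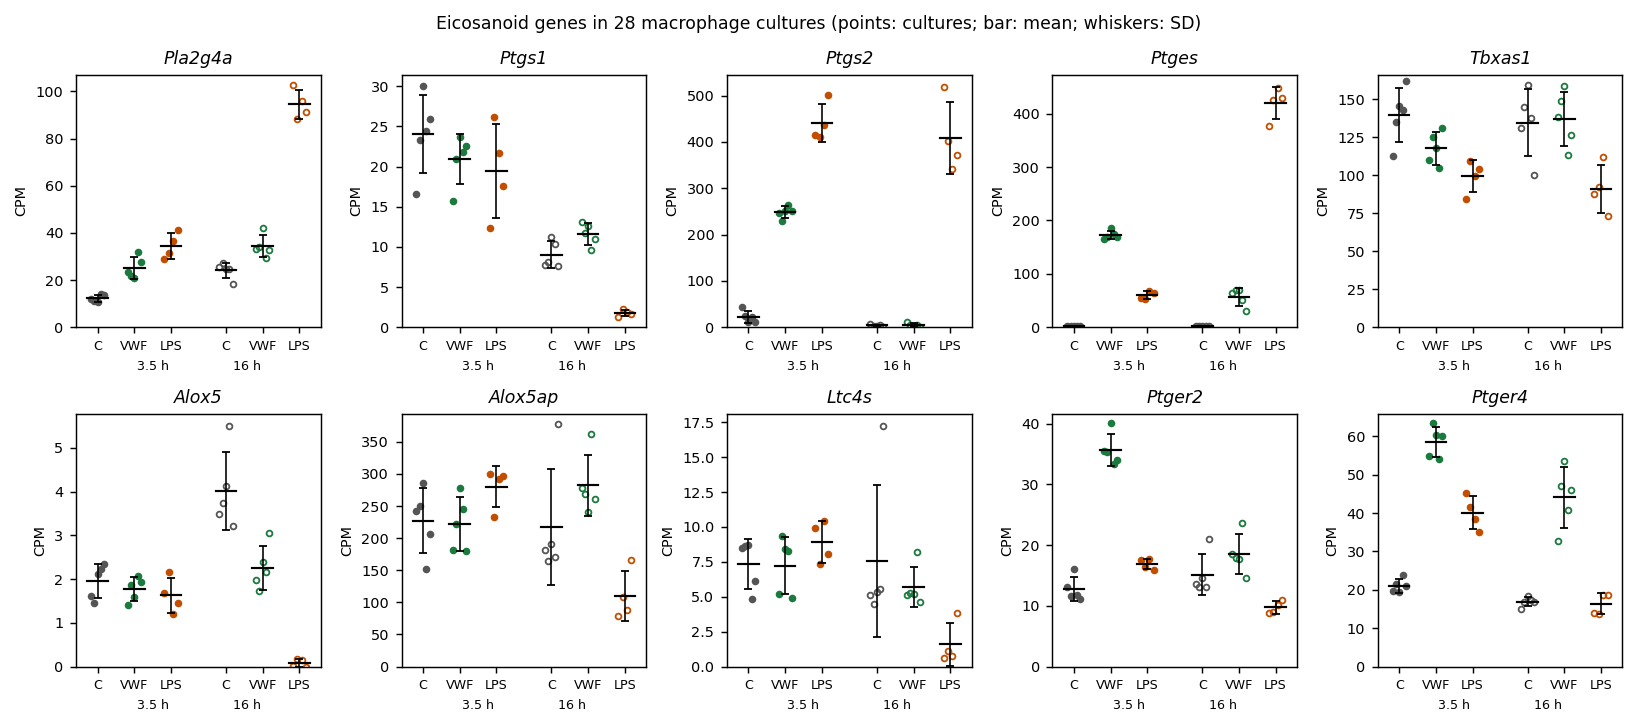
CPM of the 10 genes on a linear axis from 0, one point per culture, filled at 3.5 h and open at 16 h (C, control), with the group mean as a bar and the SD as whiskers (cut at 0). Ptgs2 and Ptges are high in VWF cultures at 3.5 h, and at 16 h Ptgs2 lies at 1.44 to 12.1 CPM with VWF and at 341 to 519 CPM with LPS.

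**Figure D2:**
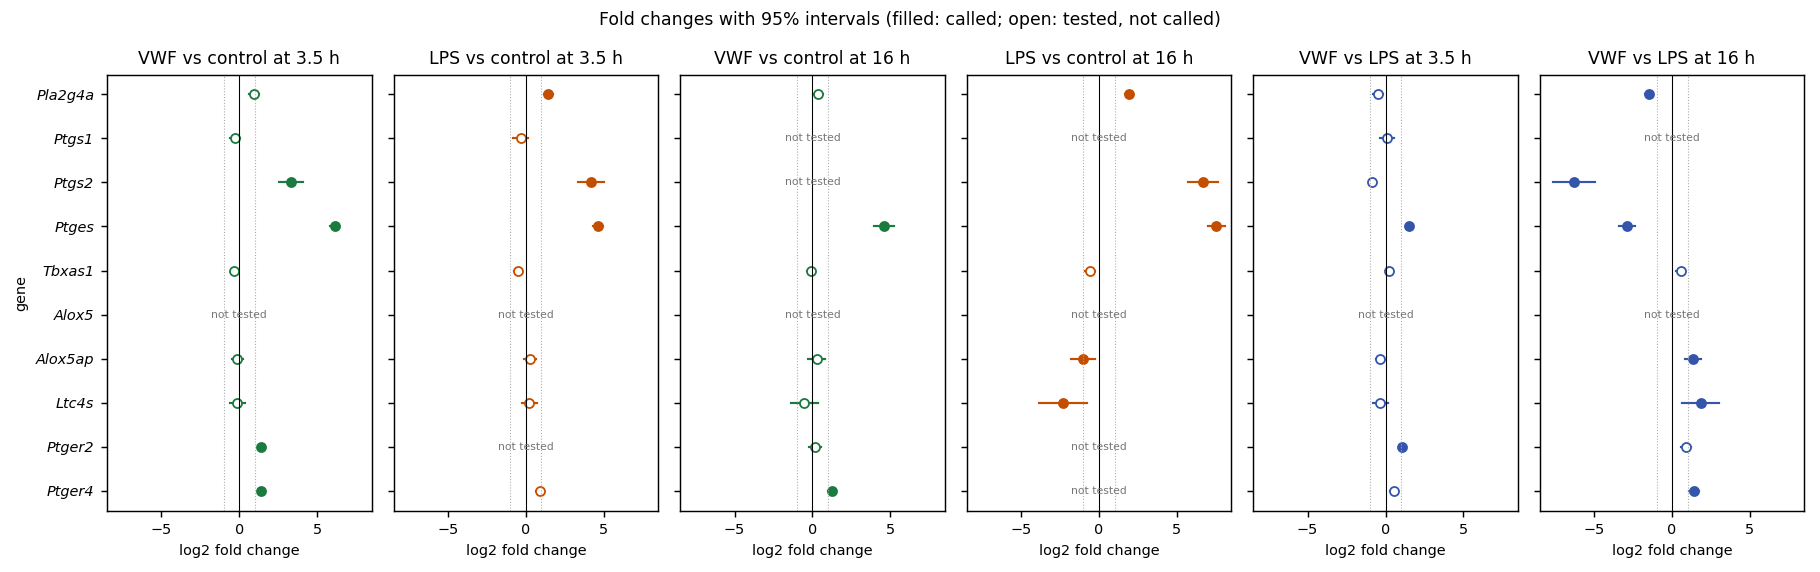
Log2 fold changes of the tested members with 95% intervals in 6 comparisons (edgeR), filled where called and open where tested but not called; dotted lines mark 1 and −1. Members under the expression filter are marked as not tested, and Ptges with LPS at 16 h has the highest value, 7.55.

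Pla2g4a (ENSMUSG00000056220) encodes cytosolic phospholipase A2, which frees arachidonic acid. It lies on the minus strand of chromosome 1 of GRCm38, from 149829618 to 149961290. The 5 control cultures at 3.5 h held 11.9, 11.0, 10.6, 14.3 and 13.5 CPM, and the 5 VWF cultures held 23.2, 21.8, 21.0, 32.1 and 27.6 CPM. The 4 LPS cultures at that time held 28.8, 31.6, 36.4 and 41.3 CPM. No treated culture overlapped the controls at 3.5 h. The log2 fold change was 0.95 (SE 0.14) with VWF (edgeR adjusted p = 1.75e-04), under the fold threshold, and 1.45 (SE 0.12) with LPS (edgeR adjusted p = 1.36e-06). The VWF value passed the threshold in the fits that left out VWF 3.5 h replicate 2 (1.01), VWF 3.5 h replicate 3 (1.03) or Control 3.5 h replicate 4 (1.00). With all cultures it also passed under filterByExpr (1.01) and with no filter (1.01).

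At 16 h, Pla2g4a stood at 25.7, 27.2, 24.8, 24.5 and 18.5 CPM in controls and at 33.2, 34.1, 42.0, 29.6 and 32.6 CPM with VWF. With LPS it reached 103, 88.2, 96.1 and 91.1 CPM, above every culture of the other 5 groups. The LPS increase over control was 1.94 (SE 0.12) (edgeR adjusted p = 6.75e-07), and VWF cultures were lower than LPS cultures, with a log2 fold change of −1.50 (SE 0.11). For VWF against control the value was 0.39 (SE 0.12) (edgeR adjusted p = 0.0301), under the fold threshold. Control cultures alone rose from 3.5 h to 16 h by 1.02 (SE 0.12), so that the PBS cultures moved in the same direction as the treated ones. Without Control 3.5 h replicate 2, Control 3.5 h replicate 3 or Control 16 h replicate 2 this increase was 0.99, 0.96 and 0.98, under the fold threshold. With all cultures the call was also lost under library size scaling (0.997), filterByExpr (0.97) and no filter (0.97).

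Ptgs1 and Ptgs2 encode the cyclooxygenases COX-1 and COX-2, of which the first is known as the constitutive and the second as the inducible enzyme. Ptgs2 (ENSMUSG00000032487) occupies chromosome 1 from 150100031 to 150108227 on the plus strand, and Ptgs1 (ENSMUSG00000047250) chromosome 2 from 36230426 to 36252272 on the plus strand. Ptgs2 lies 138740 bases from Pla2g4a. The 250 bases before the RefSeq start of each gene, and those before the start of Ptges, are shown because these 3 genes carry the cyclooxygenase and PGE2 synthase results described next. They were read from RefSeq windows on GRCm38.p6, at chr1:150099781-150100030 (plus strand) for Ptgs2, chr2:36230176-36230425 (plus strand) for Ptgs1 and chr2:30903298-30903547 (minus strand) for Ptges. Capitals mark a match to the C/EBP motif, which was the one motif match among these 3 sequences.
Ptgs2: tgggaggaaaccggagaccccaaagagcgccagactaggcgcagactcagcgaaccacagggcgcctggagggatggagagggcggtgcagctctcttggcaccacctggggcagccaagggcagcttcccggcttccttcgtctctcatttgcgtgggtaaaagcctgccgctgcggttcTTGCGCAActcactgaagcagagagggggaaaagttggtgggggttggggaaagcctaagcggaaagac
Ptges: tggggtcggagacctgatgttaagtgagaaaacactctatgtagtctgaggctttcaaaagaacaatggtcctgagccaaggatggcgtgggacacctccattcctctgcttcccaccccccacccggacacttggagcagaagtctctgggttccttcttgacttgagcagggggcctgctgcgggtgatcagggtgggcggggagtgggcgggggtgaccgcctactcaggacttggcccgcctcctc
Ptgs1: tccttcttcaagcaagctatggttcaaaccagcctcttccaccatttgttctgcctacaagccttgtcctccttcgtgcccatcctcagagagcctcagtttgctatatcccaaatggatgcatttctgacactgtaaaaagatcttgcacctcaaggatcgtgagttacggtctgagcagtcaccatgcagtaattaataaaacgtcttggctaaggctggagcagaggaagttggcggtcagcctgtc

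Motifs were searched on both strands in 300 bases per start, the 250 shown and the 50 that follow. They were AP-1 (TGANTCA), CRE (TGACGTCA) and its shorter core (TGACG), the E-box (CACGTG), the core promoter box spelled TATAAA, C/EBP (TTGCNNAA), and the consensus sites of ISRE and NF-kappaB. The C/EBP match of Ptgs2, TTGCGCAA, lies 69 to 62 bases before the start, and 10.8% of 32807 RefSeq windows of this length held such a match. After the start, the Ptgs2 window held the shorter CRE core (minus strand) at bases 14 to 18 and an overlapping E-box at bases 17 to 22, which 20.8% and 7.15% of windows held. Ptges and Ptgs1 held no match to any of the motifs, which says only that these letters are not in these windows. The RefSeq start of Ptges lies 26566 bases inside the outermost end of its GENCODE gene. RefSeq windows were found for 9 of the 10 genes.

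Ptgs2 in control cultures at 3.5 h was 43.8, 24.4, 12.1, 22.2 and 11.8 CPM. VWF cultures held 247, 229, 251, 264 and 249.95 CPM and LPS cultures 415, 410.4, 437 and 501 CPM. The 3 groups did not overlap. The highest control, replicate 1, also had the highest sum of the fibroblast and stromal markers among the controls at 3.5 h (117 TPM, against 17.7 to 99.7 TPM), and the part of these markers in Ptgs2 was not tested. The increase was 3.34 (SE 0.36) with VWF (edgeR adjusted p = 1.26e-05) and 4.20 (SE 0.39) with LPS (edgeR adjusted p = 2.67e-06). Compared directly, VWF cultures were lower than LPS cultures with a log2 fold change of −0.84 (SE 0.08) (edgeR adjusted p = 1.25e-05), which is under the fold threshold of 1.

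By 16 h the treatments had parted. Controls held 6.18, 3.44, 2.67, 5.63 and 1.55 CPM, and VWF cultures held 12.1, 4.83, 2.70, 4.94 and 1.44 CPM, so that both groups overlapped and neither reached 10 TPM. In a fit without the expression filter the difference between them was 0.38 (SE 0.55) (edgeR adjusted p = 0.706), and its 95% interval ran from −0.82 to 1.59. LPS cultures still held 519, 403, 341 and 372 CPM. That was 6.69 (SE 0.44) over control (edgeR adjusted p = 1.36e-06) on the log2 scale, and VWF against LPS gave −6.32 (SE 0.60) (edgeR adjusted p = 1.10e-05). From 3.5 h to 16 h Ptgs2 fell in controls by a log2 value of 2.52 and in VWF cultures by 5.51, whereas the value in LPS cultures was −0.04 (SE 0.15) with a 95% interval of −0.38 to 0.31. The VWF effect was smaller at 16 h than at 3.5 h, with a difference of −2.98 (SE 0.67) (edgeR adjusted p = 0.00164). The LPS effect was larger at 16 h, with a difference of 2.49 (SE 0.54) (edgeR adjusted p = 0.00113).

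Ptgs1 was 24.0 ± 4.90 CPM (SD, n = 5) in controls at 3.5 h. VWF cultures averaged 21.0 ± 3.08 CPM (SD, n = 5) and LPS cultures 19.5 ± 5.88 CPM (SD, n = 4), and these groups overlapped. Neither treatment passed the test at that time, with 95% intervals of −0.58 to 0.03 for VWF and −0.80 to 0.12 for LPS. At 16 h, controls held 7.78, 8.16, 11.3, 10.3 and 7.63 CPM and VWF cultures 13.1, 11.8, 12.5, 9.63 and 11.0 CPM. LPS cultures held 1.30, 2.27, 1.93 and 1.62 CPM, below every culture of the other groups. In LPS cultures Ptgs1 fell over time, with a log2 fold change of −3.39 (SE 0.27) (edgeR adjusted p = 9.55e-06). In controls it also fell, with a value of −1.36 (SE 0.16) (edgeR adjusted p = 1.13e-04), and the LPS effect differed between the times by −2.02 (SE 0.29) (edgeR adjusted p = 2.11e-05). At 16 h no culture of the control and LPS groups reached 10 TPM. Without the filter, the LPS value against control was −2.29 (SE 0.23) (edgeR adjusted p = 6.21e-06), and the VWF value was 0.32 (SE 0.15) (edgeR adjusted p = 0.222).

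Per length, Ptgs2 and Ptgs1 transcripts were of similar abundance in controls at 3.5 h, with a median Ptgs2 to Ptgs1 ratio in TPM of 0.770 (0.341 to 2.25) over the cultures. The ratio was 9.38 (8.98 to 13.3) with VWF and 20.6 (13.3 to 28.5) with LPS. At 16 h it was 0.357 (0.172 to 0.673) in controls and 0.348 (0.112 to 0.786) with VWF, while in LPS cultures it was 173 (150.1 to 338). Values in parentheses are the lowest and highest culture. Both terms moved in LPS cultures at 16 h, Ptgs2 being high and Ptgs1 low.

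Ptges (ENSMUSG00000050737) encodes microsomal PGE synthase-1, the inducible enzyme that makes PGE2 from the cyclooxygenase product. It lies on the minus strand of chromosome 2, from 30889471 to 30929863. Control cultures held 2.92, 2.14, 2.48, 2.16 and 1.96 CPM at 3.5 h and 2.29, 1.48, 1.71, 2.47 and 2.94 CPM at 16 h. VWF cultures held 165, 168, 185, 174 and 169.9 CPM at 3.5 h, and LPS cultures held 54.3, 53.5, 67.9 and 64.2 CPM. At this time every VWF culture lay above every LPS culture, the opposite order to that of Ptgs2. The log2 fold change over control was 6.12 (SE 0.13) with VWF (edgeR adjusted p = 3.79e-10) and 4.63 (SE 0.15) with LPS (edgeR adjusted p = 6.45e-10). VWF cultures were higher than LPS cultures by 1.51 (SE 0.08) (edgeR adjusted p = 2.20e-07). In that comparison 2 of 9 members tested were called higher with VWF, Ptges and Ptger2, against 11.4% of all genes called, 4.71% higher and 6.71% lower. Ptger2 passed the filter there only through the VWF cultures, with LPS cultures at up to 6.96 TPM.

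At 16 h the order of the treatments was reversed. VWF cultures held 64.7, 70.5, 69.1, 50.4 and 30.6 CPM and LPS cultures 377, 426, 448 and 429.7 CPM. All treated cultures still lay above the controls. The increase over control was 4.60 (SE 0.29) with VWF (edgeR adjusted p = 2.02e-06) and 7.55 (SE 0.25) with LPS (edgeR adjusted p = 3.05e-08), and VWF against LPS gave −2.91 (SE 0.22) (edgeR adjusted p = 2.68e-06). Over time Ptges fell in VWF cultures (−1.54, SE 0.19) and rose in LPS cultures (2.88, SE 0.10). The VWF effect changed with time by −1.49 (SE 0.29) (edgeR adjusted p = 4.58e-04) and the LPS effect by 2.93 (SE 0.24) (edgeR adjusted p = 4.30e-08). In VWF cultures at 16 h Ptges was above control while Ptgs2 overlapped control. The median Ptges to Ptgs2 ratio in TPM was 0.792 (0.768 to 0.862) with VWF and 0.152 (0.149 to 0.181) with LPS at 3.5 h. It was 17.0 (6.23 to 29.8) with VWF and 1.29 (0.845 to 1.53) with LPS at 16 h. In controls it was 0.114 (0.0777 to 0.239) at 3.5 h and 0.512 (0.432 to 2.21) at 16 h, so that the LPS cultures overlapped the controls at 16 h.

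**Figure D3:**
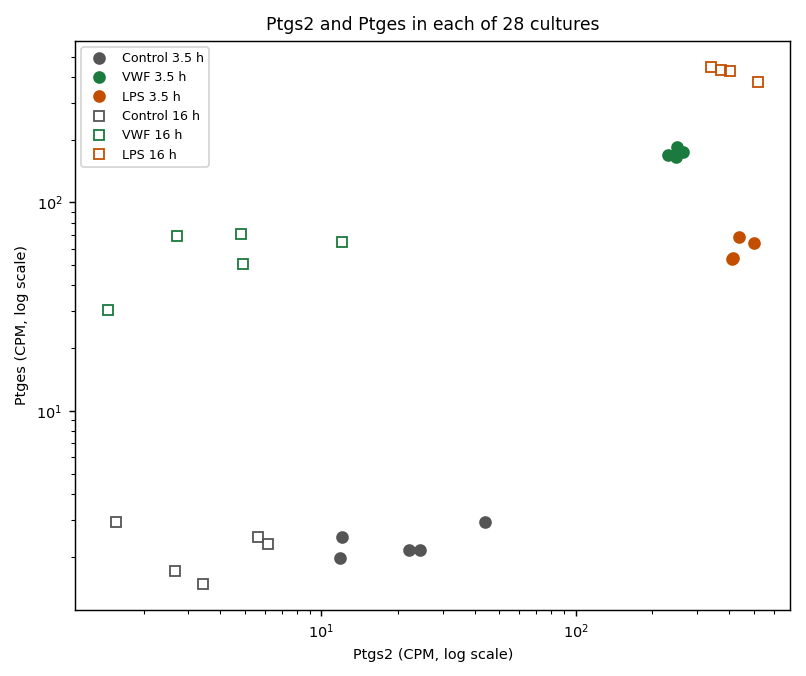
Ptges against Ptgs2 in each of the 28 cultures, in CPM on log axes, with circles at 3.5 h and squares at 16 h. VWF cultures at 16 h lie at low Ptgs2 (1.44 to 12.1 CPM) and raised Ptges (30.6 to 70.5 CPM), apart from the other 5 groups.

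Tbxas1 (ENSMUSG00000029925), the thromboxane A2 synthase gene on chromosome 6 from 38875404 to 39084585 (plus strand), was called in none of the 11 comparisons tested with edgeR. Its adjusted p was under 0.05 in 5 of them. Controls held 113, 135, 145, 143 and 162 CPM at 3.5 h, VWF cultures 109.7, 125, 118, 105 and 131 CPM and LPS cultures 84.5, 109.6, 99.4 and 104 CPM. All 4 LPS cultures lay below all 5 controls at that time. The log2 fold change was −0.33 (SE 0.09) with VWF (edgeR adjusted p = 0.0142) and −0.53 (SE 0.10) with LPS (edgeR adjusted p = 9.83e-04), both under the fold threshold. At 16 h the mean was 134 ± 21.8 CPM (SD, n = 5) in controls, 137 ± 17.9 CPM (SD, n = 5) with VWF, against 91.1 ± 15.9 CPM (SD, n = 4) with LPS, and the LPS value against control was −0.60 (SE 0.14) (edgeR adjusted p = 0.00558). With library size scaling in place of TMM, which moved the median of all genes to −0.55 at 3.5 h and −0.59 at 16 h, Tbxas1 was called lower with LPS at both times (−1.07 and −1.16).

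The leukotriene branch starts with 5-lipoxygenase, encoded by Alox5 (ENSMUSG00000025701, chromosome 6 from 116410077 to 116461178, minus strand). Its partner FLAP, which presents arachidonic acid to the enzyme, is encoded by Alox5ap (ENSMUSG00000060063, chromosome 5 from 149264767 to 149288153, plus strand). Leukotriene C4 synthase, which joins glutathione to the product, is encoded by Ltc4s (ENSMUSG00000020377, chromosome 11 from 50236461 to 50238616, minus strand). Per length the 3 transcripts differed widely: in controls at 3.5 h, Alox5ap stood at 522 ± 79.9 TPM, Ltc4s at 23.7 ± 4.59 TPM and Alox5 at 1.58 ± 0.379 TPM. Alox5ap was the most abundant of the 10 genes in 5 groups, and in LPS cultures at 16 h it ranked after Ptges and Ptgs2.

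Alox5 stayed under 10 TPM in all 28 cultures and was therefore tested in none of the comparisons with the filter. At 3.5 h its mean was 1.95 ± 0.392 CPM (SD, n = 5) in controls, 1.77 ± 0.268 CPM (SD, n = 5) with VWF, against 1.63 ± 0.404 CPM (SD, n = 4) with LPS. At 16 h controls held 3.48, 3.74, 4.13, 5.50 and 3.21 CPM and VWF cultures 1.98, 1.74, 2.38, 2.16 and 3.06 CPM, with no overlap. LPS cultures at 16 h held 16 counts of Alox5 in all 4 libraries together, between 0 and 9 per culture, against 182 to 356 counts in each control culture. Without the filter, the LPS value against control at 16 h was −5.42 (SE 0.61) (edgeR adjusted p = 1.65e-05). The VWF value was −0.87 (SE 0.21) (edgeR adjusted p = 0.0132), under the fold threshold.

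Alox5ap and Ltc4s did not pass the test with either treatment at 3.5 h. Alox5ap was 227 ± 50.4 CPM (SD, n = 5) in controls, 222 ± 42.3 CPM (SD, n = 5) with VWF, against 280.3 ± 31.6 CPM (SD, n = 4) with LPS. For Ltc4s the means were 7.37 ± 1.80 CPM (SD, n = 5), 7.23 ± 2.02 CPM (SD, n = 5) and 8.93 ± 1.48 CPM (SD, n = 4). The 95% intervals of the log2 fold changes of Ltc4s were −0.62 to 0.38 for VWF and −0.23 to 0.69 for LPS, and those of Alox5ap were −0.49 to 0.24 and −0.11 to 0.62.

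At 16 h, Ltc4s in the controls was 5.16, 4.52, 5.37, 5.56 and 17.2 CPM. The highest value was that of replicate 5, the control culture with the low macrophage marker sum. VWF cultures held 5.16, 5.26, 5.23, 8.22 and 4.63 CPM and LPS cultures 0.619, 1.10, 0.741 and 3.85 CPM. In the VWF and the LPS group, replicate 4 was again the highest for Ltc4s and the lowest for the macrophage marker sum. All 4 LPS cultures lay below all controls, with a log2 fold change of −2.31 (SE 0.69) (edgeR adjusted p = 0.0188). It was −1.73 without Control 16 h replicate 5, −3.27 without LPS 16 h replicate 4, and −2.67 without both, and called in each. Without LPS 16 h replicate 1, 2 or 3 it was −2.04, −2.16 and −2.06, with edgeR adjusted p between 0.0511 and 0.0573. VWF against control gave −0.52 (SE 0.39) (edgeR adjusted p = 0.383), and 0.04 without that control culture. VWF cultures were higher than LPS cultures by 1.83 (SE 0.53) (edgeR adjusted p = 0.0132). That value was 2.76 without LPS 16 h replicate 4.

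Alox5ap at 16 h was 181, 165, 191, 171 and 378 CPM in controls, where replicate 5 lay far above the other 4. VWF cultures held 279, 269, 241, 363 and 261 CPM and LPS cultures 78.2, 109, 88.1 and 166 CPM. The LPS decrease against control was −1.02 (SE 0.33) (edgeR adjusted p = 0.0269). It was −0.70 without Control 16 h replicate 5 and −0.98 without that culture and LPS 16 h replicate 4, both under the fold threshold. With all cultures the call was also lost under filterByExpr (−0.95), with no filter (−0.94) and with the replicate block (−0.77). It was −1.31 and called without LPS 16 h replicate 4 alone. Without LPS 16 h replicate 1, 2 or 3 the edgeR adjusted p lay between 0.0675 and 0.0778. VWF against LPS gave 1.33 (SE 0.23) (edgeR adjusted p = 6.54e-04), or 1.60 without LPS 16 h replicate 4. VWF against control gave 0.26 (SE 0.24) (edgeR adjusted p = 0.496), or 0.57 without Control 16 h replicate 5 (edgeR adjusted p = 0.00330) and 0.16 without VWF 16 h replicate 4. The LPS effect changed between the times by −1.27 (SE 0.38) for Alox5ap and by −2.53 (SE 0.71) for Ltc4s. Without Control 16 h replicate 5 these were −0.95, no longer called, and −1.94. The part of the macrophage markers in these values was not tested.

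**Figure D4:**
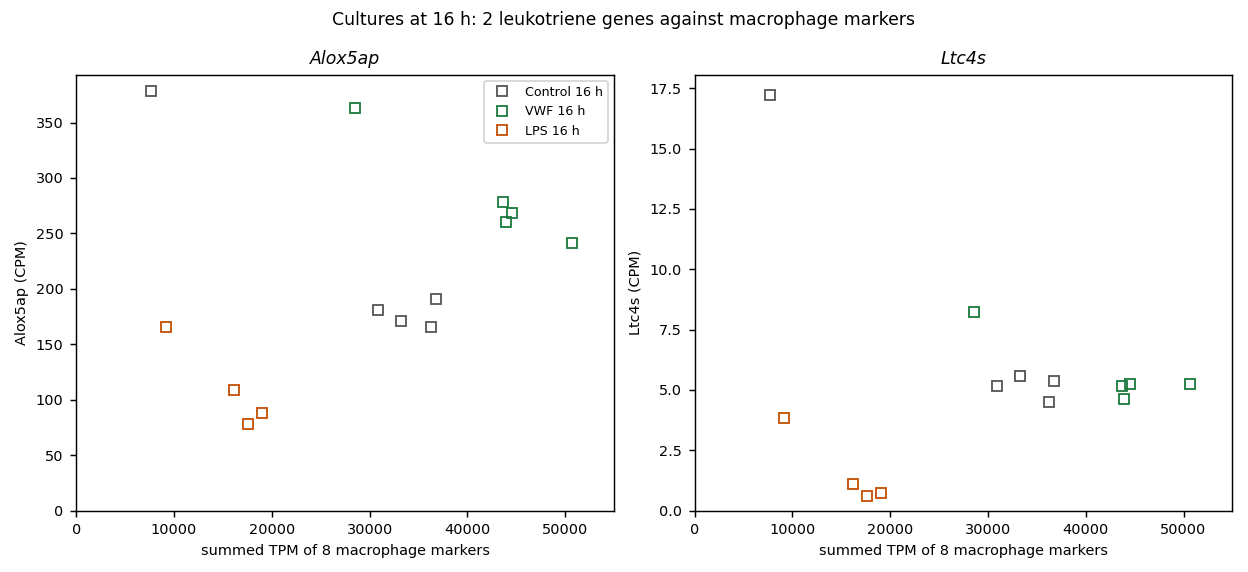
Alox5ap (left) and Ltc4s (right), in CPM, against the summed TPM of 8 macrophage markers in the 14 cultures at 16 h, one square per culture. Lyz2 had the highest mean of the 8 markers in each group. In each group the culture with the lowest marker sum holds the highest value of both genes, as in Control 16 h replicate 5 with 7670 TPM of markers and 17.2 CPM of Ltc4s.

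Overlapping annotation bears on some of these values, since the strand setting of the counts is not given in the sources used here. The antisense gene Gm26542 covers 26.4% of the exon length of Ltc4s and held at most 54 counts in a culture. The antisense gene Gm19719 covers 13.3% of that of Alox5ap, with at most 27 counts. The pseudogene Gm15937 covers 15.3% of the exon length of Ptger4 and held no counts, and 12.3% of the 100-base windows of Ptger4 transcripts occur in it as well. Ttc33 shares 1.23% of the Ptger4 exon length. For Ptgs2, Ptges, Alox5 and Pla2g4a, no 100-base window was shared with another gene.

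Ptger2 (ENSMUSG00000037759, chromosome 14 from 44988195 to 45003820, plus strand) and Ptger4 (ENSMUSG00000039942, chromosome 15 from 5206661 to 5244187, minus strand) encode the PGE2 receptors EP2 and EP4. Control cultures at 3.5 h held 13.1, 11.6, 16.0, 11.8 and 11.2 CPM of Ptger2, VWF cultures 35.5, 35.3, 40.0, 33.3 and 33.9 CPM and LPS cultures 17.5, 16.4, 17.7 and 15.9 CPM. All 5 VWF cultures lay above all control and LPS cultures. The log2 fold change with VWF was 1.40 (SE 0.10) (edgeR adjusted p = 5.14e-07), and VWF cultures were higher than LPS cultures by 1.06 (SE 0.08) (edgeR adjusted p = 3.37e-06). Ptger2 stayed under 10 TPM in the LPS and control cultures, and without the filter the LPS value was 0.39 (SE 0.14) (edgeR adjusted p = 0.0269).

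At 16 h, Ptger2 in VWF cultures (18.5, 17.9, 17.7, 23.7 and 14.5 CPM) overlapped the controls (13.6, 13.1, 14.6, 13.0 and 21.0 CPM), and the value was 0.18 (SE 0.17) (edgeR adjusted p = 0.529). It was 0.34 without Control 16 h replicate 5 (edgeR adjusted p = 0.0588) and 0.07 without VWF 16 h replicate 4. The VWF effect was smaller at 16 h than at 3.5 h, with a difference of −1.19 (SE 0.21) (edgeR adjusted p = 1.91e-04). From 3.5 h to 16 h Ptger2 in VWF cultures had a log2 fold change of −0.90 (SE 0.12), under the fold threshold. Without VWF 16 h replicate 4 that value was −1.01 and called. LPS cultures held 8.84, 8.90, 10.2 and 11.0 CPM, below all other groups. Without the filter the LPS value against control was −0.59 (SE 0.18) (edgeR adjusted p = 0.0342), under the fold threshold.

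Ptger4 was 19.7, 21.4, 19.4, 23.9 and 21.0 CPM in controls at 3.5 h. It was 54.9, 63.4, 60.4, 54.1 and 60.2 CPM with VWF and 45.3, 41.6, 38.4 and 35.1 CPM with LPS, and no 2 of these groups overlapped. The log2 fold change was 1.39 (SE 0.08) with VWF (edgeR adjusted p = 7.79e-08) and 0.89 (SE 0.11) with LPS (edgeR adjusted p = 2.45e-05), the latter under the fold threshold. At 16 h controls held 15.1, 16.8, 18.3, 17.4 and 16.8 CPM and VWF cultures 32.6, 47.2, 53.6, 40.9 and 46.1 CPM, still without overlap. LPS cultures held 14.1, 13.8, 18.6 and 18.8 CPM and overlapped the controls. The VWF increase at 16 h was 1.27 (SE 0.12) (edgeR adjusted p = 1.94e-05), and its difference from that at 3.5 h was −0.09 (SE 0.14) with a 95% interval of −0.38 to 0.20. VWF cultures were higher than LPS cultures by 1.41 (SE 0.15) (edgeR adjusted p = 3.01e-05). In LPS cultures Ptger4 fell from 3.5 h to 16 h by a log2 value of 1.24 (SE 0.16).

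Compared directly at 16 h, 6 of 8 members tested differed between VWF and LPS, against 25.5% of all genes (11.1% higher and 14.5% lower). Ptger4, Alox5ap and Ltc4s were higher with VWF, and Ptgs2, Ptges and Pla2g4a were lower. Ptger4, Ltc4s and Ptger2 passed the filter there only through the VWF cultures, with LPS cultures at up to 6.44, 6.72 and 4.52 TPM. Ptgs2 passed only through the LPS cultures, with VWF cultures at up to 7.46 TPM. The filter left out Ptgs1 and Alox5, whose log2 fold changes without it were 2.66 and 4.61. Over time, 3 of 7 members were called in controls (Ptgs2 and Ptgs1 lower, Pla2g4a higher), 2 of 9 in VWF cultures (Ptgs2 and Ptges lower) and 6 of 8 in LPS cultures. Of all genes tested, 9.08% were called in controls (4.00% higher, 5.09% lower), 21.4% in VWF cultures (9.15% and 12.2%) and 28.1% in LPS cultures (14.6% and 13.5%). In LPS cultures Ptges and Pla2g4a were higher at 16 h, and Alox5ap, Ptger4, Ptgs1 and Ltc4s were lower. In controls, Ptgs2 and Ptgs1 passed the filter only through 3.5 h and Pla2g4a only through 16 h. Ptgs2 in VWF cultures, and Ptger4, Ptgs1 and Ltc4s in LPS cultures, passed only through 3.5 h. The VWF effect differed between the times for 3 of 9 members, against 13.5% of all genes (5.69% higher and 7.77% lower at 16 h). The LPS effect differed for 5 of 8, against 26.3% (13.5% and 12.8%).

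Another 54 genes of the pathway were read as a list: enzymes that supply arachidonate, further prostanoid synthases, leukotriene enzymes, genes of inactivation and transport, and receptors. Between 20 and 24 of them passed the filter in a comparison. With VWF at 3.5 h, 2 of 21 rose and 1 fell, where 14.7% of all genes were called. Under library size scaling 1 was higher and 3 were lower, so that the balance turned. The risen genes were Ptgir, the prostacyclin receptor (1.34, SE 0.17), and Abcc4, an exporter of prostaglandins (1.00, SE 0.21), and the fallen gene was the secreted phospholipase Pla2g12a (−1.95, SE 0.21). The Abcc4 call rests on a value at the threshold and was lost in 5 of 10 fits with 1 culture left out (lowest 0.89) and under DESeq2, median-of-ratios factors, one fit over all groups and library size scaling (0.78). The median over the 21 genes was −0.08. With LPS at 3.5 h, 2 of 20 fell, Daglb, a diacylglycerol lipase (−1.51, SE 0.21), and Pla2g15, a lysosomal phospholipase (−1.16, SE 0.13), with a median of 0.06. There, 24.5% of all genes were called, and under library size scaling none of the list was higher and 4 were lower. Ptgir stood at 7.68 ± 1.21 CPM (SD, n = 4) with LPS and 32.1 ± 5.98 CPM (SD, n = 5) with VWF, a difference of 2.05 (SE 0.18) (edgeR adjusted p = 6.63e-06).

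At 16 h, Hpgd and Ephx1 had the largest decreases of the list genes tested, with VWF and with LPS alike. Hpgd, which encodes the 15-hydroxyprostaglandin dehydrogenase that degrades PGE2, was 29.5, 36.9, 60.5, 54.7 and 41.8 CPM in controls. VWF cultures held 5.27, 5.30, 4.42, 8.19 and 7.39 CPM and LPS cultures 0.960, 1.55, 0.939 and 0.970 CPM. The 3 groups did not overlap. Hpgd fell by a log2 value of 2.98 with VWF (SE 0.25, edgeR adjusted p = 9.45e-06) and by 5.37 with LPS (SE 0.29, edgeR adjusted p = 4.15e-07). At 3.5 h its values were −0.27 (SE 0.16) and 0.06 (SE 0.15), neither past the test, and the change of the effect between the times was −2.68 (SE 0.30) for VWF and −5.40 (SE 0.32) for LPS. Ephx1, a microsomal epoxide hydrolase, went from 137 ± 40.4 CPM (SD, n = 5) in controls to 13.4 ± 3.69 CPM (SD, n = 5) with VWF and to 13.7 ± 3.45 CPM (SD, n = 4) with LPS, at log2 fold changes of −3.47 (SE 0.27) and −3.35 (SE 0.30). Control 16 h replicate 5 was the lowest control for Ephx1, at 65.7 CPM, and without it the values were −3.64 and −3.52.

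In all, 2 of 23 list genes rose and 4 fell with VWF at 16 h (median 0.02), and 3 of 22 rose and 6 fell with LPS (median −0.09). Of all genes, 8.71% and 27.6% were called. Under library size scaling the list counts were 2 and 4 with VWF, and 3 and 8 with LPS. Without Control 16 h replicate 5 the counts were 4 and 3 with VWF, and 3 and 6 with LPS. Pla2g7, the platelet-activating factor acetylhydrolase, rose from 78.3 ± 13.8 CPM (SD, n = 5) to 335 ± 22.0 CPM (SD, n = 5) with VWF and to 579 ± 30.6 CPM (SD, n = 4) with LPS. Lpcat2, which remakes membrane lipid and platelet-activating factor, rose with both, by 1.60 (SE 0.13) and 1.58 (SE 0.13). The cysteinyl leukotriene receptor gene Cysltr2 rose with LPS (2.77, SE 0.48), to 14.7, 16.4, 12.5 and 16.5 CPM, while VWF cultures held 1.30 to 1.83 CPM. Its 5 controls held 1.62, 1.31, 1.12, 1.42 and 5.13 CPM, the highest being replicate 5, and the value without that culture was 3.43. Mgst3, a glutathione transferase of the Ltc4s family, was lower with VWF (−1.42, SE 0.31) and with LPS (−2.03, SE 0.41), or −1.04 and −1.64 without Control 16 h replicate 5. Daglb was also lower with LPS (−2.34, SE 0.51). The remaining called genes were named after their values were seen: Pla2g12a fell with VWF (−1.19, or −0.80 and not called without Control 16 h replicate 5), and Hpgds (−1.27) and Lta4h (−1.10) fell with LPS.

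**Figure D5:**
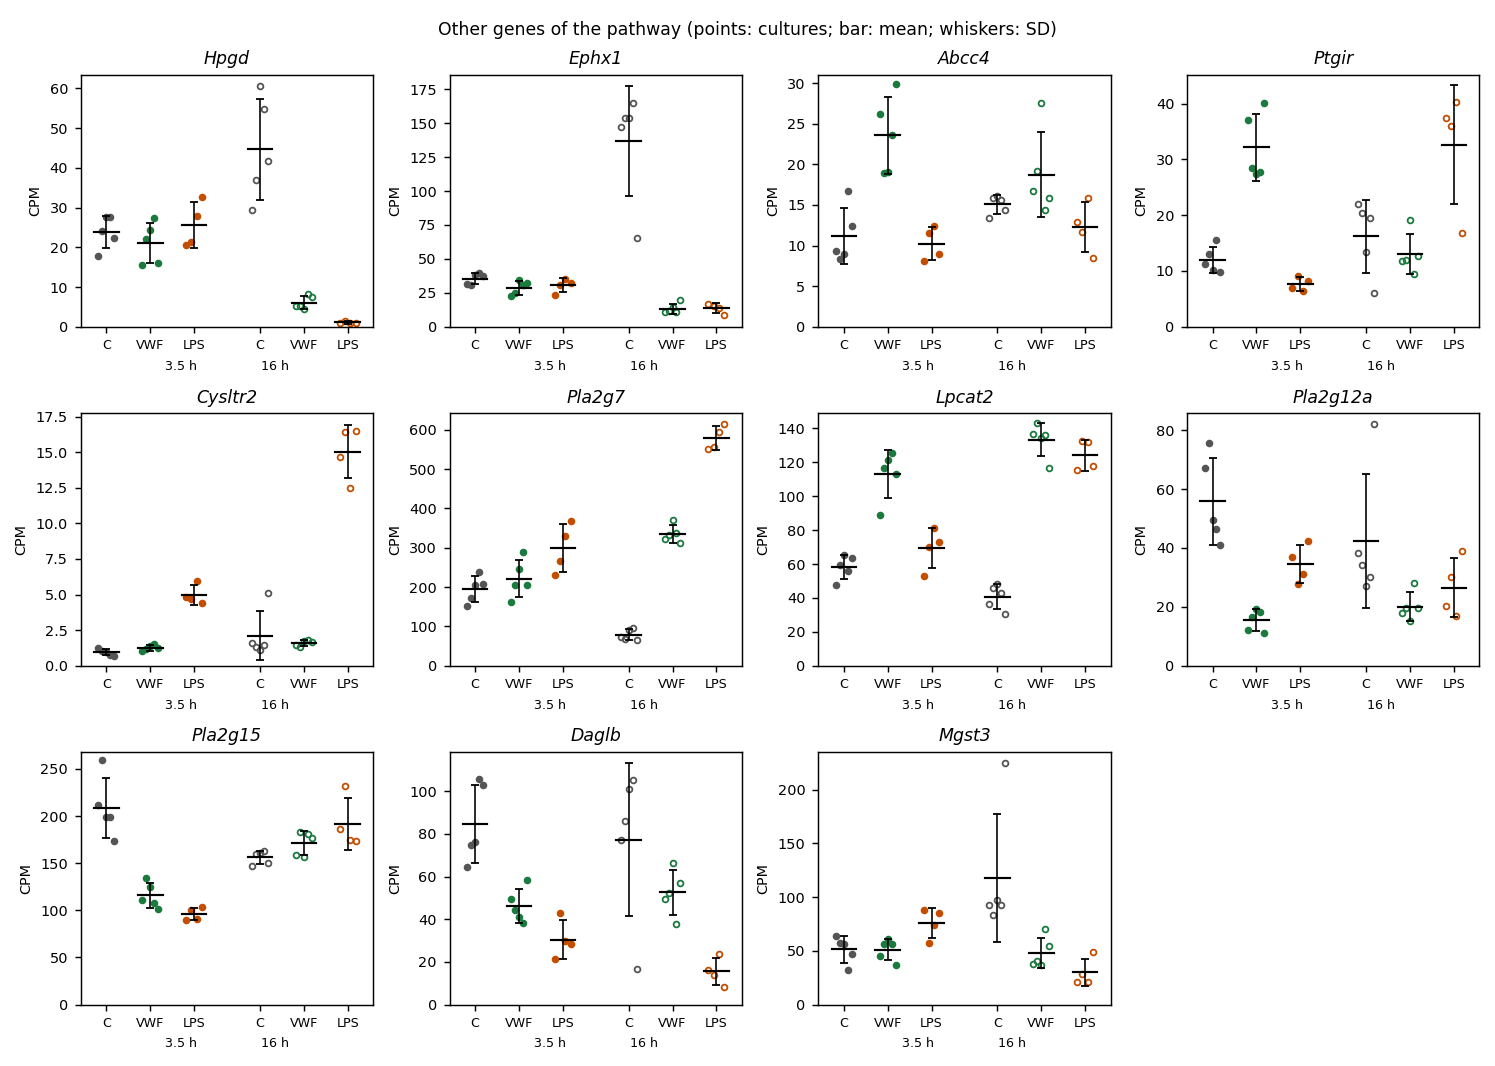
CPM of 11 further pathway genes on linear axes from 0, one point per culture, filled at 3.5 h and open at 16 h (C, control), with the group mean and SD. Hpgd at 16 h lies at 29.5 to 60.5 CPM in controls, 4.42 to 8.19 CPM with VWF and 0.939 to 1.55 CPM with LPS.

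The genes with the most similar pattern were sought among 8867 genes by the root mean square difference of centred log2 group means over the 6 groups, as a description. For Ptgs2 they were Ccrl2 (0.659), Ccl7 (0.857) and Mmp13 (0.974), and for Ptges Rasgrp1 (0.706), Tarm1 (0.709) and Mefv (0.805). For Ptgs1 they were Igfbp4 (0.180), Gm13710 (0.254) and Prkd3 (0.258). The nearest to Pla2g4a were Oas1c (0.111), Idnk (0.177) and Pgap2 (0.210). Ptger4 was nearest to Cd82 (0.250), Gdpd1 (0.298) and Ppp3cc (0.311), and Ptger2 to Vis1 (0.199), Hvcn1 (0.215) and Ppp3cc (0.218). The pattern of Alox5, with its near absence in LPS cultures at 16 h, was closest to Birc5 (0.256), Pbk (0.263) and Racgap1 (0.263). Ltc4s was nearest to Gm22270 (0.158), Rgs10 (0.165) and Dock1 (0.166). Of the flatter patterns, Alox5ap was nearest to Eef1d (0.0558), Gm9800 (0.0899) and Fbl (0.0985), and Tbxas1 to Letmd1 (0.0321), Mpv17 (0.0510) and Desi1 (0.0551).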

How the data were processed

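Bulk RNA sequencing of BMDMs was deposited by the authors as raw counts per gene and culture. Per the labels the reads were aligned with STAR to GRCm38 (mm10), while the annotation, strand setting and handling of multimapped reads were not given in the sources used here. CPM, TPM (GENCODE M21 exon lengths) and all tests were computed from these deposited counts with edgeR 4.0.16 (TMM, robust quasi-likelihood test, Benjamini-Hochberg adjustment) in R 4.3.3. A comparison used its 2 groups alone, and a time interaction its 4 groups. Genes reaching 10 TPM in at least 1 culture were tested, and calls needed an adjusted p under 0.05 and an absolute log2 fold change over 1. The scripts were tested on simulated counts. The 10 members and all gene lists were chosen with earlier results of these data known. Pathway genes were named by a rule: per comparison with control and per direction, the 3 called list genes that changed most. Alternatives were DESeq2 1.42.0, other scalings and filters, one fit over all groups, a replicate block, and leaving out each culture in turn. Total counts of 41131209 to 77699206 per culture set the precision, and no 2 cultures of a group agreed within sampling noise (52 pairs compared). Same-numbered cultures deviated together (correlation over 0.1 in every pair) in 1 comparison, VWF against LPS at 16 h, where 4 pairs gave 0.20 to 0.81. Promoter sequences and windows are from RefSeq (GRCm38.p6).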

Additional observations from a re-analysis of the deposited data

Results flagged for a closer look

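Single cultures lay far from the rest of their group for 3 members, by Dixon's criterion, which flags about 1 in 20 groups by chance and was applied to 60 combinations of a member and a group. Control 16 h replicate 5 was the highest of its 5 cultures for Ptger2 (21.0 CPM), Alox5ap (378 CPM) and Ltc4s (17.2 CPM). VWF 16 h replicate 4 was the highest for Ltc4s (8.22 CPM), and LPS 16 h replicate 4 was the highest for Ltc4s (3.85 CPM). LPS 3.5 h replicate 2 was the lowest for Alox5ap (233 CPM). The part of the macrophage marker sum, which was low in the first 3 of these cultures, was not tested.

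The effect of a treatment differed between 3.5 h and 16 h for several members by the interaction term in edgeR. For VWF the effect on Ptgs2 (−2.98), Ptges (−1.49) and Ptger2 (−1.19) was smaller at 16 h on the log2 scale. For LPS the effect was larger at 16 h on Ptgs2 (2.49) and Ptges (2.93), and lower at 16 h for Ptgs1 (−2.02), Ltc4s (−2.53) and Alox5ap (−1.27).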

How the results depend on the processing

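The member counts kept within 1.5 times under DESeq2, other scalings, other filters, one fit over all groups and the block. Of 1355 recomputed values, 1292 kept direction and side of the threshold. With adjusted p alone and no fold threshold, 5 members passed with LPS at 3.5 h, 6 for VWF against LPS at 3.5 h, 8 over time in VWF cultures and 5 for the VWF effect between times, against 3, 2, 2 and 3. With 1 culture left out, the called members ranged from 3 to 5 with LPS at 16 h (3 without LPS 16 h replicate 1, 2 or 3), from 4 to 5 with VWF at 3.5 h, from 2 to 3 over time in controls and in VWF cultures, and from 4 to 6 for the LPS effect between times. The values that changed sign were small. For LPS at 3.5 h under library size scaling they were Alox5ap −0.27 and Ltc4s −0.30. For controls over time they were Alox5ap −0.083 (library size), −0.049 (filterByExpr), −0.075 (no filter), −0.0033 (all groups) and −0.069 (replicate block), Ltc4s −0.0085 (library size) and −0.11 (replicate block), and Tbxas1 0.0024 (filter over all 28 cultures). For Ptger4 the VWF effect between times was 0.039 (library size). With 1 culture left out, values that changed sign ranged from −0.69 to 0.043 (Ltc4s, VWF at 16 h), −0.068 to 0.29 (Ptgs1, VWF against LPS at 3.5 h), −0.32 to 0.10 (Alox5ap), −0.48 to 0.26 (Ltc4s) and −0.060 to 0.077 (Tbxas1) in controls over time, −0.21 to 0.065 (Ptgs2) and −0.15 to 0.028 (Tbxas1) in LPS cultures over time, −0.59 to 0.19 (Ltc4s, VWF effect between times) and −0.14 to 0.026 (Tbxas1, LPS effect between times). The cause was not tested.

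Library size scaling moved the median of all genes to −0.22 and −0.09 with VWF and to −0.55 and −0.59 with LPS (3.5 h and 16 h), and to 0.32 and 0.46 for VWF against LPS. The genes called higher and lower were then 608 and 652 in place of 746 and 458 (VWF at 3.5 h), 704 and 2213 in place of 1047 and 963 (LPS at 3.5 h), 782 and 2319 in place of 1221 and 989 (LPS at 16 h), 772 and 334 in place of 353 and 503 (VWF against LPS at 3.5 h), 1772 and 687 in place of 837 and 1095 (at 16 h), and 610 and 569 in place of 493 and 673 (VWF effect between times). Pla2g4a with LPS at 3.5 h was then 0.90, under the fold threshold. The filter set the number of genes called: 1204 with VWF at 3.5 h became 2099 with filterByExpr and 2366 with no filter, 679 at 16 h became 1362 and 1378, 2010 with LPS at 3.5 h became 3917 and 4542, and 2210 at 16 h became 4087 and 4224. For VWF against LPS, 856 became 1776 and 1942 at 3.5 h, and 1932 became 3897 and 4242 at 16 h. Over time, 757 became 1570 and 1524 in controls, 1694 became 3458 and 3974 in VWF cultures, and 1964 became 4116 and 4298 in LPS cultures. For the effect between times, 1166 became 1972 and 1904 (VWF), and 2301 became 3790 and 3613 (LPS). These filters admit more genes.

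With the replicate block, pairing cultures by number, 4, 2, 3 and 4 members were called with VWF at 3.5 h, VWF at 16 h, LPS at 3.5 h and LPS at 16 h. The lost call was Alox5ap with LPS at 16 h (−0.77). For VWF against LPS at 16 h, where same-numbered cultures deviated together, 6 members stayed called. The sources used here do not say what a replicate number marks. Elsewhere the correlations of same-numbered cultures ran from −0.69 to 0.73 over 36 pairs. Leaving out both Control 16 h replicate 5 and LPS 16 h replicate 4 was chosen after seeing the data. The depth of the LPS cultures at 16 h (49191460 to 66425251 counts) overlapped that of the controls at 16 h (50048543 to 72349526 counts), and Alox5 had 16 counts in those LPS cultures together.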

Other observations

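Ptgs2 was highest in replicate 1 of its group in controls at 3.5 h (43.8 CPM), in controls at 16 h (6.18 CPM), with VWF at 16 h (12.1 CPM) and with LPS at 16 h (519 CPM), but not with VWF or LPS at 3.5 h. The summed fibroblast and stromal markers were highest in the same 4 cultures of those groups (117, 65.7, 96.6 and 84.2 TPM), and also in replicate 1 with VWF at 3.5 h (150.1 TPM), where Ptgs2 was not highest. Their part in the Ptgs2 values was not tested. Ptgs2os2, a long noncoding RNA gene on the minus strand of chromosome 1 from 150159043 to 150164948, was looked at after its values were seen. It rose with LPS at 16 h, with a log2 fold change of 5.37 (SE 0.62, edgeR adjusted p = 6.12e-05).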
